A study of Mus musculus with 9 samples.

Results

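The genes described here are 7 members of the pathway by which blood cells sense antibody: the receptors Fcgr1, Fcgr2b, Fcgr3 and Fcgr4, the adaptors Fcer1g and Tyrobp, and the kinase Syk. They were chosen by name, and all 7 were found among the 23499 genes of the deposited blood table and again in the deposited joint table. The blood came from 9 female 129SvE mice of a rheumatoid arthritis model: 4 healthy mice (1 to 4, disease stage 0) and 5 arthritic mice, namely mice 1 and 4 at stage 1.5, mouse 3 at stage 2, mouse 5 between 1.5 and 2 and mouse 6 between 2 and 2.5. No treatment, genotype change or age is given for either group, and the way arthritis was induced is not given in the sources used here. Single cells were captured by Seq-Well, which places cells and barcoded beads in small wells, and each deposited column carries a cell class and a mouse. Signal was summed per mouse or class and divided by its total (SPM, signal per 1000000); values compared between groups were scaled with TMM (trimmed mean of M values) factors and are called TMM-scaled SPM.

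Fc gamma receptors bind the constant part of IgG, so that cells respond to immune complexes and antibody-coated targets. Fcgr1, Fcgr3 and Fcgr4 encode activating receptors that sit at the membrane with the common gamma chain encoded by Fcer1g, whose tyrosine motif recruits Syk once Src family kinases have phosphorylated it. Fcgr2b encodes the inhibitory receptor, which opposes this through the lipid phosphatase encoded by Inpp5d, and Tyrobp encodes DAP12, an adaptor with the same kind of motif that serves other myeloid receptors. In neutrophils and macrophages the activating receptors drive phagocytosis and the release of mediators, and in B cells the inhibitory receptor restrains antigen receptor signalling.

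Of the 7 genes, 4 lay close together on chromosome 1 (build GRCm38, GENCODE M21). Fcgr2b (ENSMUSG00000026656.15) spanned chr1:170958617-170976547 on the minus strand, Fcgr4 (ENSMUSG00000059089.4) chr1:171018920-171029761 on the plus strand, Fcgr3 (ENSMUSG00000059498.13) chr1:171051174-171064935 on the minus strand and Fcer1g (ENSMUSG00000058715.11) chr1:171229572-171234365 on the minus strand. Fcgr1 (ENSMUSG00000015947.10) lay at chr3:96282909-96293969 on the minus strand, Tyrobp (ENSMUSG00000030579.10) at chr7:30413760-30417585 on the plus strand and Syk (ENSMUSG00000021457.14) at chr13:52583173-52648792 on the plus strand. All 7 are protein-coding. Because Tyrobp ends close to Hcst (chr7:30417712-30419854, minus strand), a gene for another receptor adaptor, reads at that boundary could belong to either where counting ignored the strand, which is not stated.

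The stretches before the start sites of the activating receptors and of their shared gamma chain are shown because the receptors reach the membrane together with the gamma chain, while the signal of these 4 genes was spread differently over classes and mice. Each is the 250 bases of RefSeq (GRCm38.p6) before the start, read on the gene's own strand. The Fcgr3 window precedes a start inside the GENCODE span, and 27 of its bases, 6 of those before Fcgr4 and 16 of those before Fcer1g lie in exons of annotated transcripts; capitals mark GAGGAA, the purine core bound by PU.1, here as its reverse complement TTCCTC, or TTCNNNGAA, the form bound by STAT proteins.
Fcgr1 (chr3:96293970-96294219, minus strand): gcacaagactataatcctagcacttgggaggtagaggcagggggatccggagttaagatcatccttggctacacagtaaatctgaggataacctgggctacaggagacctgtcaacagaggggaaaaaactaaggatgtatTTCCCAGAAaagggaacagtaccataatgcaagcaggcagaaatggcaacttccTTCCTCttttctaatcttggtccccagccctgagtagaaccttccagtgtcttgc
Fcgr3 (chr1:171059404-171059653, minus strand): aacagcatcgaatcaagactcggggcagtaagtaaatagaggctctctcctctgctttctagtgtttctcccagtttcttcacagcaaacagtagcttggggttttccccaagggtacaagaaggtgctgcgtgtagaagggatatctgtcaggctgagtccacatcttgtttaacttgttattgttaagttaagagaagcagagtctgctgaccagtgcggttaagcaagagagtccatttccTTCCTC
Fcgr4 (chr1:171018676-171018925, plus strand): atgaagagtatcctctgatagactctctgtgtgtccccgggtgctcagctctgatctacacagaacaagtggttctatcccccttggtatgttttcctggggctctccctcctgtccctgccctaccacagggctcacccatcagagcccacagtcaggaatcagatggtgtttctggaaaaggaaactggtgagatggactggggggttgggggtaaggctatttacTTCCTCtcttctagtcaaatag
Fcer1g (chr1:171234350-171234599, minus strand): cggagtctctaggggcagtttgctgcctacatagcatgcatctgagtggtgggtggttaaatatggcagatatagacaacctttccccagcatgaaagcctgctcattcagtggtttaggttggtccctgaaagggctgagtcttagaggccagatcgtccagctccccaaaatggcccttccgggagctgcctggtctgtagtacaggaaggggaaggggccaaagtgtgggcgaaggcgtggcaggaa
GAGGAA on either strand was found 1 time in each of the Fcgr1, Fcgr3 and Fcgr4 windows and not in the Fcer1g window. TTCNNNGAA, which reads the same on both strands, was found only in the Fcgr1 window among these 4. Of all 32851 windows of the same length, 23.3% held GAGGAA and 7.02% held TTCNNNGAA, and no overlap between the motifs occurred in the windows shown. These are matches of letters, and nothing about binding was measured.

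Some properties of the libraries touch every value below. Healthy mice gave 26 to 201 columns and 330950 to 2053973 total signal, arthritic mice 502 to 1027 columns and 8350920 to 13557201. Of 4310 columns, 1313 were identical to another, 734 of them to a column of another mouse, and 59 of the 302 healthy columns equalled an arthritic one, so the mice are not fully independent; the columns carried 4309 distinct barcodes. Hemoglobin genes took 1.68% to 55.0% of the signal in healthy and 0.630% to 50.0% in arthritic mice. Healthy mouse 2 stood apart, with 2.49% of its columns in the granulocyte class against 42.3% to 44.4% in the other healthy mice and 31.4% to 86.7% in the arthritic mice. The samples are labelled both PBMC and Blood, and the granulocyte class, in which all 14 neutrophil markers were highest among the 6 classes compared, held 1905 columns. The class labelled foxP3 T cells had none of 12 T cell markers at its highest but 8 of 11 NK and 6 of 12 erythroid ones, and the myeloid dendritic class led for 12 of 16 monocyte and macrophage as well as 9 of 10 dendritic markers. Their deposited names are used below as labels only.

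By class, both adaptors were concentrated in the myeloid classes of blood. These levels are descriptions without a test, since the classes were drawn from the same cells. Fcer1g had 848 ± 155 SPM in the dendritic class (SD over 4 mice with at least 5 columns), 600.1 ± 246 in granulocytes (9 mice), 163 ± 40.9 in the foxP3 class (7 mice), 124 ± 85.4 in B cells (8 mice), 79.3 ± 15 in progenitors (4 mice) and 40.1 ± 22.2 in the CD4 T class (6 mice). The ranges of the dendritic class (715.5 to 1016) and of granulocytes (262 to 1009) overlapped, and both lay above every mouse of the other classes, of which the highest had 239 SPM. The 4 mice behind the dendritic and the progenitor values were all arthritic.

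Tyrobp followed the same order of classes. It had 1005 ± 121 SPM in the dendritic class, 738 ± 312 in granulocytes, 210.4 ± 55.5 in the foxP3 class, 172 ± 69.2 in B cells, 99.6 ± 37.1 in progenitors and 78.0 ± 26.1 in the CD4 T class (SD, same mice). The dendritic and granulocyte ranges again overlapped, with granulocytes between 348 and 1389 SPM, and no mouse of the other 4 classes exceeded 284 SPM. Neighbouring classes among those 4 overlapped as well.

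Of the activating receptors, Fcgr3 was the one seen across mice in both myeloid classes. Fcgr3, the low-affinity activating receptor, had 120.3 ± 42.2 SPM in granulocytes, with a range of 70.8 to 189, and 91.1 ± 27.5 in the dendritic class. It had 30.3 ± 16.0 in the foxP3 class, 20.5 ± 27.3 in B cells, 12.3 ± 9.79 in progenitors and 9.01 ± 6.31 in the CD4 T class. The granulocyte and dendritic ranges overlapped, and the B cell mean was raised by healthy mouse 4 at 83.2 SPM, from 15 columns.

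Fcgr1, the high-affinity receptor, was scarce. It had 6.10 ± 7.82 SPM in granulocytes and 12.5 ± 17.8 in the dendritic class, where arthritic mouse 1 had 38.9 SPM, arthritic mouse 6 had 6.35, arthritic mouse 4 had 4.81 and arthritic mouse 3 was listed at 0. Progenitors held no Fcgr1 signal in 193 columns. Fcgr4, a receptor for IgG2 subclasses, had 6.40 ± 5.14 SPM in granulocytes, 9.51 ± 8.10 in the foxP3 class and 4.24 ± 1.52 in the dendritic class. With all columns of a class together the first pair changed places, at 9.51 SPM in granulocytes and 6.35 in the foxP3 class, so their order depended on the weight given to each mouse.

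The inhibitory receptor had a flatter profile. Fcgr2b had 71.8 ± 22.2 SPM in the dendritic class, 55.7 ± 22.5 in granulocytes, 27.0 ± 23.5 in B cells, 22.8 ± 15.8 in the CD4 T class, 13 ± 8.17 in the foxP3 class and 10.2 ± 3.80 in progenitors. In the B class, where it is the Fc gamma receptor known to be expressed, 18.7% of columns held any Fcgr2b signal, against 18.9% in the CD4 T class, at a median of 8769 and 8448 signal per column. After every column was thinned to 6052 signal, the smallest total, the shares were 12.5% and 10.4%. B cell markers summed to 1344 SPM in the CD4 T class against 6077 in the B class, and their part in its Fcgr2b signal was not tested. With all columns together Fcgr2b had 19.1 SPM in the B class and 17.8 in the CD4 T class. Fcgr2b in B cells could therefore not be set apart from background here. For Fcgr3 the same shares were 14.7% and 6.89%, or 10.1% and 5.56% after thinning. For comparison, Fcgr2b signal was present in 49.0% of granulocyte columns, or 28.1% after thinning.

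Syk differed from the other 6 genes in that its level in B cells was not below that in granulocytes. It had 219 ± 70.4 SPM in the dendritic class, 146 ± 63.5 in B cells, 108 ± 30.3 in granulocytes, 92.8 ± 65.7 in the foxP3 class, 54.5 ± 10.4 in the CD4 T class and 37.0 ± 14.0 in progenitors. The B cell range of 97.1 to 298 SPM overlapped the granulocyte range of 60.6 to 152. Syk also acts downstream of the B cell antigen receptor.

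These profiles can be restated as shares of the blood's signal. Granulocytes held 48.8% of all signal but 85.0% of Fcgr3, 83.7% of Fcer1g, 82.7% of Fcgr1, 81.2% of Tyrobp, 76.6% of Fcgr4 and 71.2% of Fcgr2b signal. Their share of Syk was 49.5%, close to that of all genes, and B cells held 32.5% of Syk against 25.2% of all signal.

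**Figure D1:**
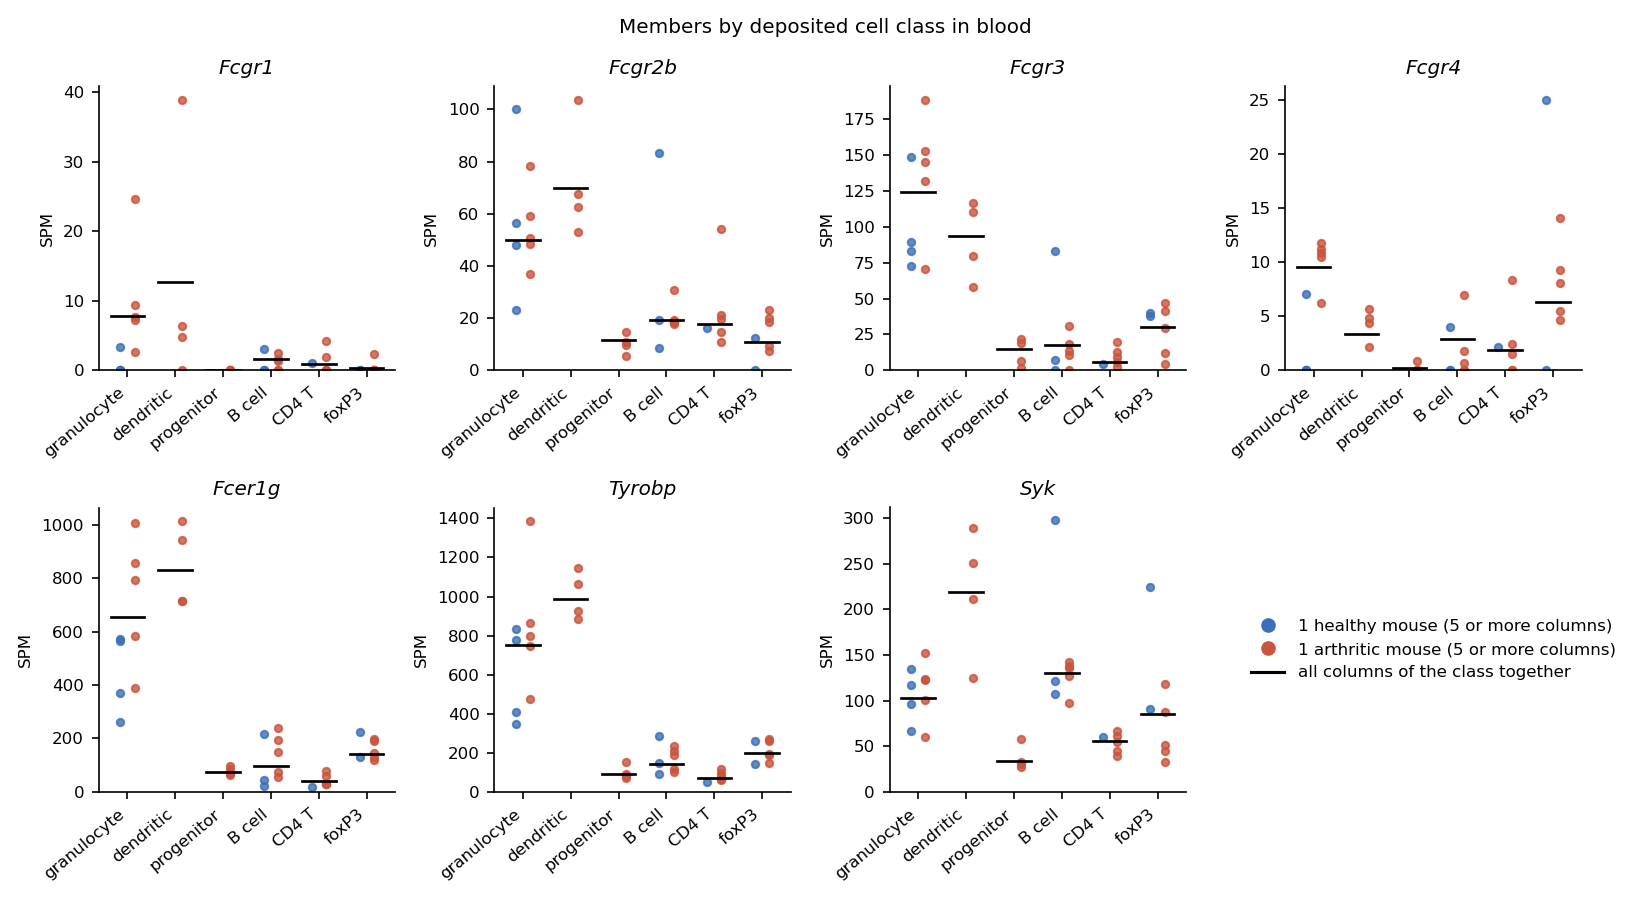
SPM of each gene (vertical axis, linear) by deposited cell class; each point is 1 mouse with at least 5 columns of the class (blue healthy, red arthritic) and each black line all columns of the class together. Fcer1g and Tyrobp stand high in the granulocyte and dendritic classes, whereas Syk in B cells (130.4 SPM with all columns together) lies beside its level in granulocytes (102).

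The first comparison asked whether the pathway's transcripts differed between arthritic and healthy mice over all blood cells. None of the 7 genes was called: of 5 tested, 0 passed the threshold of an adjusted p under 0.05 (limma, Benjamini-Hochberg over 8459 genes), beside 4 of all genes, or 0.0473%. Without adjustment 1133 of the 8459 genes (13.4%) had a p under 0.05, and none of the 5 was among them. The groups of these 5 overlapped, as they did for most genes: 3.64% of all genes tested lay wholly higher in the arthritic mice. Sums over all cells cannot tell fewer cells of a type from less RNA per cell. Beside these values, the 14 neutrophil markers summed to 4429 to 13562 TMM-scaled SPM in healthy and 16077 to 139549 in arthritic mice, all 14 with a higher arthritic mean; the 16 monocyte and macrophage markers summed to 459 to 1137 and 729 to 1212, with 10 of 16 higher.

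Fcer1g had the largest log2 difference of the 5 genes tested. In healthy mice 1 to 4 it had 366, 40.4, 324 and 243 TMM-scaled SPM, and in arthritic mice 1, 3, 4, 5 and 6 it had 352, 260.1, 476, 647 and 315. Healthy mouse 2 was far below every other mouse, and the remaining healthy mice lay among the arthritic ones. The log2 difference (arthritic minus healthy) was 1.06 ± 0.57 (SE; limma adjusted p = 0.404, n = 4 and 5). It was 1.41 ± 0.43 with the hemoglobin share of signal as a covariate (limma unadjusted p = 0.00657, adjusted p = 0.142) and 1.38 ± 0.62 without healthy mouse 1 (adjusted p = 0.249). Without healthy mouse 2 it was 0.30 ± 0.28 (limma adjusted p = 0.541), and with the granulocyte share of the columns as a covariate 0.39 ± 0.36 (limma adjusted p = 0.535).

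Tyrobp behaved alike. Its values were 425, 78.1, 362 and 408 TMM-scaled SPM in healthy mice 1 to 4 and 370.4, 283, 597, 796 and 431 in arthritic mice 1, 3, 4, 5 and 6. Healthy mouse 2 was again the lowest, and the other healthy mice fell inside the arthritic range. The log2 difference was 0.80 ± 0.49 (limma adjusted p = 0.442), 1.12 ± 0.34 with the hemoglobin share as a covariate (adjusted p = 0.145), and 0.19 ± 0.29 without healthy mouse 2 (limma adjusted p = 0.734).

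The receptors overlapped in the same way. Fcgr3 had 58.7, 6.92, 88.5 and 84.8 TMM-scaled SPM in healthy mice 1 to 4 and 59.0, 44.1, 114, 116 and 58.5 in arthritic mice 1, 3, 4, 5 and 6, a log2 difference of 0.75 ± 0.65 (limma adjusted p = 0.563). Fcgr2b had 35.2, 15.4, 33.7 and 46.9 in healthy and 28.7, 21.4, 46.9, 60.7 and 28.2 in arthritic mice, a log2 difference of 0.18 ± 0.38 (limma adjusted p = 0.834). Without healthy mouse 2 both signs turned, to -0.10 ± 0.34 for Fcgr3 and -0.17 ± 0.33 for Fcgr2b.

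Fcgr1 and Fcgr4 did not reach 10 TMM-scaled SPM in 4 mice and were not tested. Fcgr1 had 2.35, 1.54, 0 and 2.23 TMM-scaled SPM in healthy mice 1 to 4, from 6 units of signal in all. In arthritic mice 1, 3, 4, 5 and 6 it had 4.17, 2.88, 4.94, 4.38 and 6.27, and each of these lay above every healthy mouse. Without the filter, 6.85% of 23374 genes lay wholly higher in the arthritic mice. Fcgr4 had 4.70, 2.31, 0 and 4.46 in healthy and 4.94, 3.86, 8.87, 10.6 and 5.12 in arthritic mice, and arthritic mouse 3 lay among the healthy mice.

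Syk was the only one of the 5 with a lower mean in the arthritic mice. It had 101, 66.5, 139 and 183 TMM-scaled SPM in healthy mice 1 to 4 and 85.6, 81.1, 109, 109 and 98.3 in arthritic mice 1, 3, 4, 5 and 6. The arthritic values lay inside the wider healthy range, and the log2 difference was -0.25 ± 0.28 (limma adjusted p = 0.647).

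**Figure D2:**
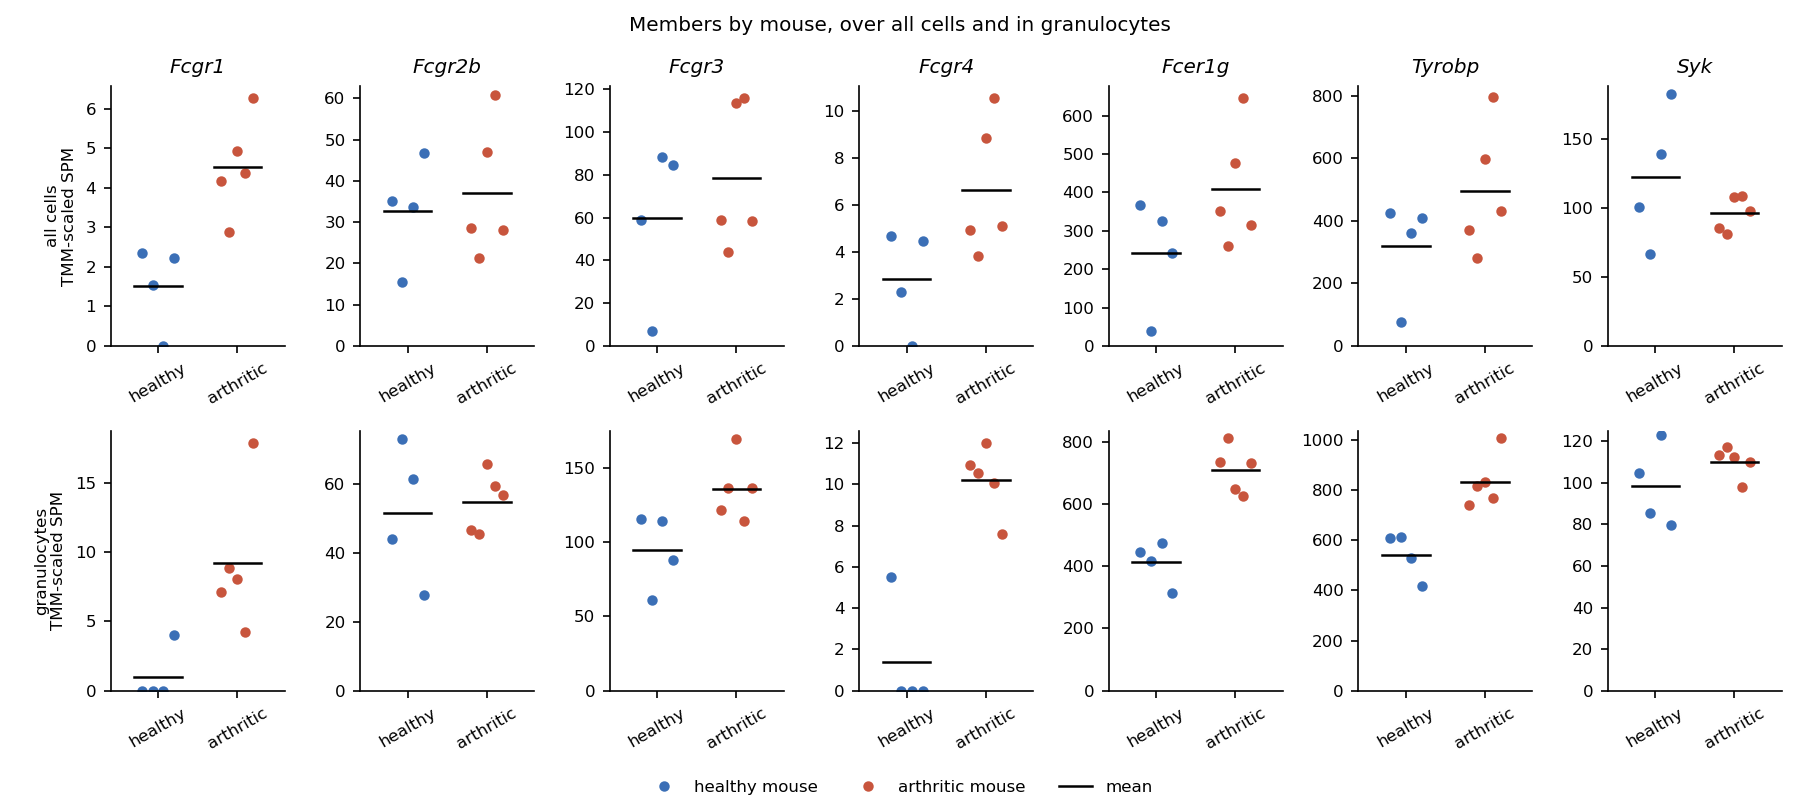
TMM-scaled SPM (vertical axis, linear) of each gene in each mouse (points; blue healthy, red arthritic) with the group mean as a black line, over all cells in the upper row and in granulocytes in the lower row. Over all cells the groups overlap for every gene but Fcgr1, and in granulocytes Fcer1g, Tyrobp, Fcgr4 and Fcgr1 show arthritic mice wholly above healthy mice. Without the filter on low values, 6.85% of all genes over all cells and 16.2% in granulocytes lay wholly above.

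Within columns of the granulocyte class, no gene of the 7 passed the threshold. In TMM-scaled SPM, Fcer1g and Tyrobp were higher in every arthritic mouse than in any healthy mouse. That separation depended on scaling and depth. With scaling by the total, or when thinned to the smallest total, the groups overlapped for both genes. Tyrobp also overlapped with median-of-ratios scaling. Before TMM scaling, arthritic mouse 5 had 387.5 SPM of Fcer1g against 572 in healthy mouse 1. For Tyrobp, arthritic mouse 5 had 476.5 SPM against 833.5 in healthy mouse 2. Of 6 tested, 0 were called, beside 52 of 7935 genes (0.655%; limma, Benjamini-Hochberg), of which 46 were higher and 6 lower; 1712 genes (21.6%) had an unadjusted p under 0.05. Arthritic mice lay wholly above healthy mice for Fcer1g and Tyrobp, and for Fcgr4, which passed the filter only through the arthritic mice and is not counted here, beside 8.65% of all genes tested. All tested genes had a median log2 difference of 0.53, so each difference is also given relative to that median.

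Fcer1g had 447, 415, 474 and 315 TMM-scaled SPM in granulocytes from healthy mice 1 to 4. In arthritic mice 1, 3, 4, 5 and 6 the values were 734, 809.9, 648, 625 and 731. The groups did not overlap, and the means were 413 ± 69.4 and 709 ± 74.2 (SD, n = 4 and 5). The log2 difference was 0.79 ± 0.18 (SE; limma unadjusted p = 0.00115, adjusted p = 0.0694), or 0.26 above the median of all genes.

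Tyrobp had 607, 611, 527 and 419 TMM-scaled SPM in healthy mice 1 to 4 and 739, 814, 833, 769 and 1006 in arthritic mice 1, 3, 4, 5 and 6. Here too every arthritic mouse was above every healthy one. The log2 difference was 0.63 ± 0.19 (limma unadjusted p = 0.00628, adjusted p = 0.117), 0.10 above the median of all genes.

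Fcgr4 was listed at 0 in the granulocytes of healthy mice 2, 3 and 4 and had 5.52 TMM-scaled SPM in healthy mouse 1, from a single unit of signal. In arthritic mice 1, 3, 4, 5 and 6 it had 10.9, 10.6, 12, 10.1 and 7.61 TMM-scaled SPM, from 26 to 78 units. It entered the test only through the arthritic mice, and 1 unit in healthy mouse 1 was worth 5.52 TMM-scaled SPM. The fitted log2 difference of 2.80 ± 0.78 (limma adjusted p = 0.102) depended on the pseudocount of 1, being 3.51 with 0.5 and 1.33 with 5. Fcgr1 had 1 unit of signal in healthy mouse 4 and none in the other healthy mice, against 21 to 61 units or 4.22 to 17.8 TMM-scaled SPM in the arthritic mice, and was under the filter.

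Fcgr3 came next among the receptors, with groups that overlapped slightly. It had 116, 61.1, 114 and 87.7 TMM-scaled SPM in healthy mice 1 to 4 and 122, 137, 170, 114 and 137 in arthritic mice 1, 3, 4, 5 and 6. Arthritic mouse 5 lay below healthy mouse 1. The log2 difference was 0.55 ± 0.24 (limma unadjusted p = 0.0407, adjusted p = 0.213), which is 0.02 from the median of all genes.

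The inhibitory receptor and the kinase had group means within their spread. Fcgr2b had 44.1, 73.3, 61.4 and 27.9 TMM-scaled SPM in healthy and 46.8, 45.6, 65.9, 59.4 and 56.7 in arthritic mice, a log2 difference of 0.16 ± 0.31 (limma adjusted p = 0.771), or -0.37 relative to the median of all genes. Syk had 105, 85.5, 123 and 79.8 in healthy and 113, 117, 112, 97.8 and 110.0 in arthritic mice, a log2 difference of 0.18 ± 0.20 (limma adjusted p = 0.589), or -0.35 relative to that median.

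The call in granulocytes turned on which mice were used. Healthy mouse 2 gave 5 granulocyte columns; without it 883 of 8208 genes were called (10.8%; limma), and Fcer1g (1.00 ± 0.19, adjusted p = 0.0127) and Tyrobp (0.90 ± 0.19, adjusted p = 0.0198) were among them. Fcer1g also passed the threshold without healthy mouse 1, healthy mouse 3, healthy mouse 4 or arthritic mouse 6, at limma adjusted p = 0.0495, 0.0332, 0.0284 and 0.0485, beside 4.10%, 2.80%, 4.46% and 2.28% of all genes called. Without any 1 of arthritic mice 1, 3, 4 and 5, no gene of the 7 was called, in fits that called 0, 0, 3 and 0 of all genes. Leaving out columns that the groups shared also took healthy mouse 2 under the minimum of 5 columns; with 3 healthy mice left, Fcer1g (0.95 ± 0.18, limma adjusted p = 0.0152) and Tyrobp (0.87 ± 0.18, adjusted p = 0.0209) were called, beside 10.7% of all genes. With no filter on low values 12.9% of 21682 genes were called, Fcer1g and Tyrobp among them. Calls of Fcgr1 and Fcgr4 in these settings are not read as tests, since 1 unit of healthy signal stood behind each. Thinned to the smallest total, the difference was 0.50 ± 0.32 for Fcer1g (limma adjusted p = 0.719) and 0.35 ± 0.32 for Tyrobp (adjusted p = 0.828), and the median of all genes was 0.11.

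Transcripts of other cells, and the neutrophil markers themselves, varied between mice in the granulocyte sums. Erythroid markers summed to between 158779 and 681652 TMM-scaled SPM in the granulocytes of healthy mice and between 6808 and 810543 in arthritic mice, with 4 of 12 markers higher in the arthritic mean; on the log2 scale 0 of 12 were higher, the median difference was -1.45 and none was called. Neutrophil markers summed to between 10813 and 96559 in healthy and between 46830 and 313367 in arthritic mice, with 14 of 14 markers higher in the arthritic mean, of which 2 were called. Monocyte and macrophage markers summed to 1061 to 1677 and 925 to 2583, with 8 of 16 higher and none called. Osteoblast and stroma markers summed to 140 to 421 in healthy and 37 to 95.2 in arthritic mice, without overlap. Of these, 3 of 10 were higher in the arthritic mean, and 1 of 3 tested was called, lower in the arthritic mice. Among the markers of these lists only Sp7, of the last list, was at 0 in all granulocyte sums. With the hemoglobin share as a covariate the Fcer1g difference was 0.71 ± 0.19 (limma adjusted p = 0.184); without hemoglobin genes it was 0.87 ± 0.17 (adjusted p = 0.0253), with 3.05% of all genes called. The part of these markers in the result was not tested.

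In B cells 0 of 5 tested genes were called, as were 0 of 9585 genes (0%; limma), while 677 (7.06%) had an unadjusted p under 0.05. Healthy mouse 3 had 1 B cell column and was left out, which left 3 healthy and 5 arthritic mice. Fcgr2b had 7.01, 18.7 and 132 TMM-scaled SPM in healthy mice 1, 2 and 4 and 17.5, 15.9, 21.3, 27.9 and 17.5 in arthritic mice 1, 3, 4, 5 and 6. Healthy mouse 4, with 15 columns and 12 units of signal, was far above the rest, and the log2 difference was -0.42 ± 0.83 (limma adjusted p = 0.808). Syk had 98.2, 105 and 471 in healthy mice 1, 2 and 4 and stayed between 108 and 130.3 in the arthritic mice, a log2 difference of -0.48 ± 0.48 (limma adjusted p = 0.616). Without healthy mouse 4 the values were 0.78 for Fcgr2b and 0.32 for Syk.

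The adaptors in B cells were equally uncertain. Fcer1g had 175, 44.3 and 32.9 TMM-scaled SPM in healthy mice 1, 2 and 4 and 70.1, 50.9, 266, 177 and 139 in arthritic mice 1, 3, 4, 5 and 6, a log2 difference of 0.89 ± 0.65 (limma adjusted p = 0.535). Tyrobp had 119, 88.5 and 450 in healthy mice and 110.0, 91.1, 212, 214 and 197 in arthritic mice, a log2 difference of -0.12 ± 0.53 (limma adjusted p = 0.918). Fcgr3 had 0, 6.89 and 132 in healthy mice and 0 to 28.8 in arthritic mice, a log2 difference of -0.04 ± 1.56 (limma adjusted p = 0.990). Fcgr1 and Fcgr4 were under the filter, at 0 to 2.95 and 0 to 6.50 TMM-scaled SPM over the 8 mice.

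Whether the arthritic difference itself differed between granulocytes and B cells was tested on each mouse's granulocyte minus B cell value. None of 6 genes was called, nor was any of 10595 genes (0%; limma), and 1120 (10.6%) had an unadjusted p under 0.05. The estimates were 0.12 ± 0.81 for Fcer1g, 0.83 ± 1.03 for Fcgr2b, 0.83 ± 1.64 for Fcgr3, 0.88 ± 0.79 for Tyrobp, 0.92 ± 0.71 for Syk and 2.45 ± 1.2 for Fcgr4, with limma adjusted p from 0.512 to 0.974. Leaving out columns shared between the groups, which leaves 1 healthy mouse, gave -3.78 for Fcgr2b (limma adjusted p = 0.00777), with 16.9% of all genes called.

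**Figure D3:**
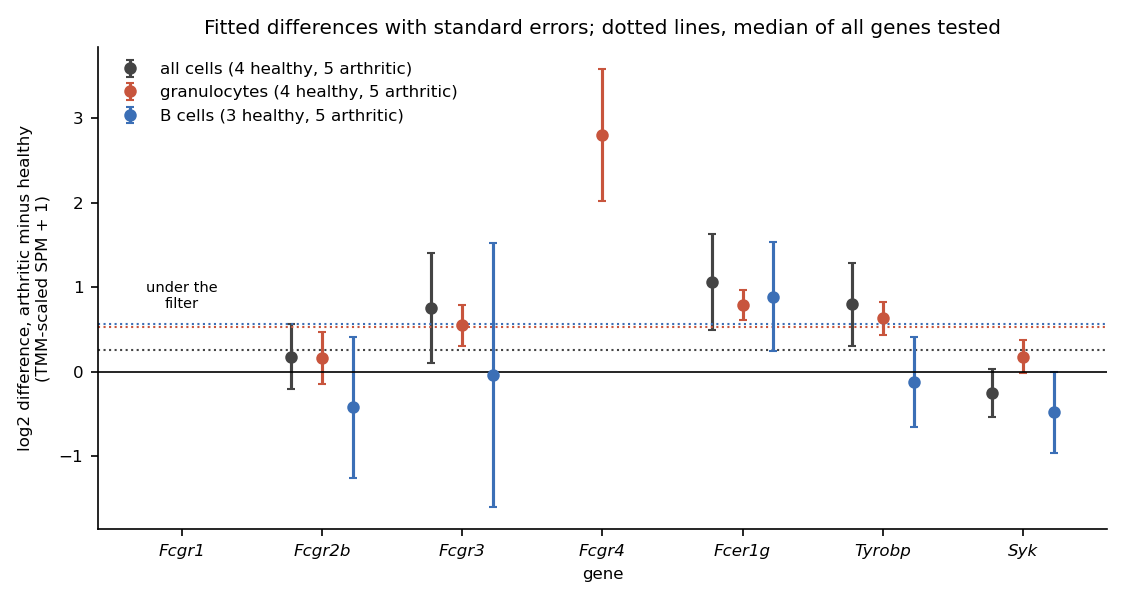
Log2 difference, arthritic minus healthy, in TMM-scaled SPM + 1 (vertical axis) for each gene over all cells (black), in granulocytes (red) and in B cells (blue); bars are standard errors and dotted lines the median of all genes tested in that comparison. In granulocytes Fcer1g (0.79) and Tyrobp (0.63) have the narrowest bars above 0, and genes without a point were under the filter on low values.

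A list of 29 genes held receptors that pair with the same adaptors, and other genes too. Among these others were the adaptor gene Hcst, Csf1r, Clec7a and the integrin genes Itgam and Itgb2. The medians below are of the whole list. Over all cells 0 of 19 tested were called, with a median log2 difference of 0.86 beside 0.26 for all genes. In granulocytes 1 of 20 was called, Trem1, beside 0.655% of all genes, and the median was 1.18 beside 0.53. Trem1, a DAP12-coupled receptor that amplifies neutrophil and monocyte inflammation, had 66.7 ± 23.3 TMM-scaled SPM in healthy and 188 ± 29.0 in arthritic granulocytes, a log2 difference of 1.53 ± 0.25 (limma adjusted p = 0.0342). This was 1.00 above the median of all genes. The lowest arthritic value of 143 exceeded the highest healthy value of 97.7, beside 8.65% of all genes tested that lay wholly higher. Trem1 passed the threshold in 15 of 23 alternative settings. Those 23 settings called between 0% and 12.9% of all genes. Over all cells Trem3, Trem1 and Itgb2, a subunit of integrins, ranked first by p, at log2 differences of 3.13 ± 0.71, 1.85 ± 0.46 and 0.88 ± 0.23 (limma adjusted p = 0.127, 0.191 and 0.199).

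Inhibitory receptors and phosphatases formed a list of 32 genes. In granulocytes 1 of 28 tested was called, beside 0.655% of all genes. It was Lilr4b, which encodes an immunoglobulin-like receptor. Its place in this list does not show that it inhibits, which was not examined here. Lilr4b had 118 ± 31.7 TMM-scaled SPM in healthy and 261 ± 36.5 in arthritic mice, a log2 difference of 1.17 ± 0.23 (limma adjusted p = 0.046). This was 0.64 above the median of all genes. Every arthritic mouse, from 197 to 290, was above every healthy mouse, from 77.2 to 149. Of all genes tested 8.65% lay wholly higher. The call held in 11 of the same 23 alternative settings. The median of the list was 0.76 in granulocytes, beside 0.53 for all genes. Over all cells 0 of 27 were called and the median was 0.36, beside 0.26 for all genes. Clec4a2 (1.74 ± 0.51), Clec12a (1.63 ± 0.51) and Dok3 (0.88 ± 0.31) had the smallest p there (limma adjusted p = 0.240, 0.261 and 0.294).

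The Src family and Syk pathway list of 46 genes held no call. Its median log2 difference was 0.14 for 38 tested genes over all cells and 0.43 for 37 in granulocytes, beside 0.26 and 0.53 for all genes. In granulocytes the smallest p belonged to Rac2 (1.38 ± 0.35), Rac1 (1.12 ± 0.30) and Arpc2 (0.81 ± 0.22), which act in actin remodelling (limma adjusted p = 0.0865, 0.0975 and 0.102). Over all cells they belonged to Rac1 (0.71 ± 0.17), Rac2 (0.94 ± 0.24) and Pik3cd (-0.96 ± 0.28), with limma adjusted p = 0.161, 0.199 and 0.228.

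Of the IgG heavy chains, the ligands of these receptors, none of 3 tested was called over all cells or in granulocytes, and none of 4 in B cells. Ighg1 averaged 75.4 ± 124 TMM-scaled SPM (SD) over all cells in the healthy group and 840 ± 842 in the arthritic group, a log2 difference of 3.84 ± 1.33 (limma adjusted p = 0.292), with groups that overlapped. Ighg2c and Ighg2b had log2 differences of 0.96 ± 0.95 and 0.63 ± 0.70. In granulocytes, Ighg1, Ighg2b and Ighg2c had log2 differences of 2.29 ± 0.79, -1.26 ± 0.70 and -0.54 ± 0.74 (limma adjusted p = 0.147, 0.305 and 0.662). Other Fc receptors, such as the neonatal receptor Fcgrt and the B cell receptor Fcer2a, had 0 of 5 called over all cells and 0 of 3 in granulocytes. Their medians were -0.23 and 0.11, beside 0.26 and 0.53 for all genes. The smallest p belonged to Fcer2a, Fcrla and Fcrl1 over all cells (-0.94 ± 0.63, -0.23 ± 0.21 and 0.58 ± 0.53). In granulocytes it belonged to Fcrl1, Fcgrt and Fcrla (1.94 ± 0.90, -0.50 ± 0.70 and 0.11 ± 0.55).

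The balance of activating to inhibitory receptor signal was taken as the summed signal of Fcgr1, Fcgr3 and Fcgr4 over that of Fcgr2b; it is not corrected for length or capture and is read between mice and classes only. Over all cells it was 1.87, 0.700, 2.62 and 1.95 in healthy mice 1 to 4 and 2.38, 2.38, 2.72, 2.16 and 2.48 in arthritic mice 1, 3, 4, 5 and 6. Healthy mouse 2 was the lowest, and healthy mouse 3 lay inside the arthritic range. In granulocytes it was 2.75, 0.833, 1.86 and 3.29 in healthy mice, from 6 to 8 units of Fcgr2b signal each, and 2.17 to 3.43 in arthritic mice. By class it was 3.33 in the foxP3 class, 2.82 in granulocytes, 1.57 in the dendritic class, 1.27 in progenitors, 1.16 in B cells and 0.490 in the CD4 T class, each with all columns together and without a test.

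Over the 38 sums of 1 mouse and 1 class with at least 5 columns, the adaptors ran closely together. Fcer1g and Tyrobp had a Pearson r of 0.915 in log2 SPM, above the other pairs of the 7, of which Fcgr3 with Tyrobp had 0.790 and Fcgr4 with Syk 0.207. Among 12178 other genes, Lyz2, Ifitm3 and Lyz1 were closest to Fcer1g (0.946, 0.934 and 0.911) and Lyz2, Lgals3 and Lyz1 to Tyrobp (0.962, 0.962 and 0.948). Lyz2 and Lyz1 encode lysozymes of myeloid cells. Pilrb1, Msrb1 and Cd14 were closest to Fcgr3 (0.830, 0.824 and 0.811), Rnase6, Il1b and Alcam to Syk (0.853, 0.826 and 0.811) and Snap23, Gm17087 and Itm2b to Fcgr2b (0.767, 0.766 and 0.759). For the scarce receptors the values were lower: Ptgir, Pira2 and Rpl3l for Fcgr1 (0.752, 0.742 and 0.717) and Sulf2, Tmem43 and 1600010M07Rik for Fcgr4 (0.724, 0.687 and 0.678). These are descriptions: the sums share mice, depth and identical columns.

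The joint table came from an earlier published study, and its columns match none of the 9 mice, so it gives levels by class with all columns together, without SD or test. Of 8423 columns, 8374 were used. Among the 8423, 3857 were identical to another and 3435 to a column of another mouse, so shares of columns are not shares of distinct cells. In the joint all 7 genes were highest in the macrophage class, of which the 66 columns labelled as sick were used and which led for 12 of 16 monocyte and macrophage markers. There Fcer1g had 1254 SPM, Tyrobp 1314, Fcgr3 753, Fcgr2b 428, Syk 143, and Fcgr1 and Fcgr4 49.7 each. Fcgr2b signal was present in 100% and Fcgr3 signal in 98.5% of these columns, and Fcgr4 and Fcgr1 signal in 48.5% and 25.8%.

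Joint granulocytes, with 6487 columns, stood at lower values than those of blood for all 7 genes. They had 548 SPM of Fcer1g, 598 of Tyrobp, 95.3 of Fcgr3, 82.5 of Syk, 41.2 of Fcgr2b, 7.40 of Fcgr4 and 3.53 of Fcgr1, against 654, 751, 124, 102, 50.1, 9.51 and 7.78 in blood granulocytes. All 7 joint values lay inside the range of single blood mice, such as 262 to 1009 SPM for Fcer1g and 348 to 1389 for Tyrobp. As the tables were made from different libraries, this difference was not tested. The osteoblast class, with the 53 columns labelled as sick and 9 of 10 stromal markers at their highest, held no Syk, Fcgr1 or Fcgr4 signal but 164 SPM of Tyrobp, 74.0 of Fcer1g and 24.6 of Fcgr3. Neutrophil markers summed to 22460 SPM in that class, and their part in these values was not tested.

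In the lymphoid and progenitor classes of the joint the adaptors stood below their level in joint granulocytes, whereas Syk in B cells and Fcgr4 in the foxP3 class (11.7 SPM) did not. Joint B cells had 67.5 SPM of Fcer1g, 122 of Tyrobp, 103 of Syk and 6.36 of Fcgr2b, the last from 5 units of signal in 63 columns. Joint progenitors, with 1498 columns, held no Fcgr1 signal, as in blood, and 0.449 SPM of Fcgr4, 16.9 of Fcgr2b and 19.6 of Fcgr3. The balance of activating to inhibitory receptor signal was 2.58 in joint granulocytes and 1.99 in joint macrophages.

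**Figure D4:**
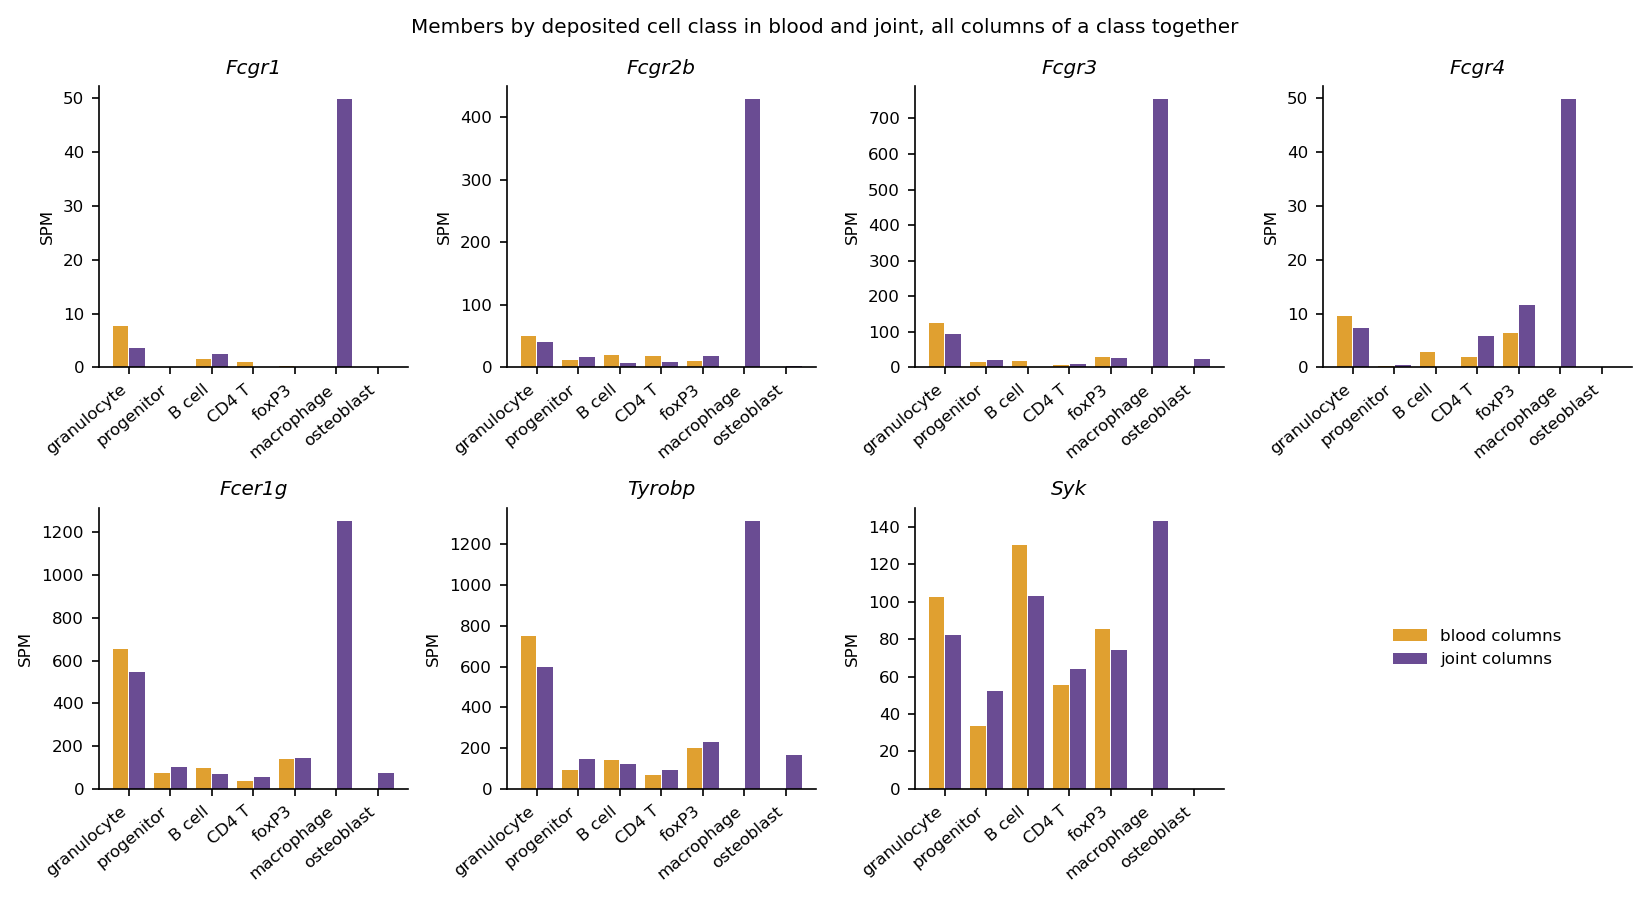
SPM (vertical axis, linear from 0) of each gene by class with all columns of a class together, in blood (yellow) and joint (purple). The macrophage and osteoblast classes are drawn for the joint only, and the joint macrophage bar is the highest for all 7 genes.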

How the data were processed

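Seq-Well was applied to blood of 4 healthy and 5 arthritic mice. The Drop-seq core protocol turned reads into values on GRCm38.p5, per the labels and the submitters' processing notes. How classes were called and which cells were kept is not given in the sources used here. What the authors deposited is unscaled signal, in whole numbers for each gene and barcode. Many columns are identical, and of 200 columns drawn, 116 lay closer to their nearest neighbour than a chi-square of 0.5 per gene, so they were not tested as counts and no counting intervals are given.

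Signal was summed per mouse, over all columns or within a class with at least 5 columns in that mouse. TMM factors (trims of 30% and 5%) scaled the sums per 1000000, and genes reaching 10 in a number of mice no lower than the size of the smaller group were fitted as log2(value + 1) with limma 3.58.1 (trend, R 4.3.3), except that the difference between classes was fitted without the trend. Benjamini-Hochberg adjusted p under 0.05 was the threshold. The labels number the mice, so each mouse is a replicate. The fits were tested on simulated data. Class levels, shares and likeness were computed with Python 3.11.15, numpy 2.4.6 and pandas 2.3.3. From the joint table, 49 columns were not used: small classes, and the healthy columns of the macrophage and osteoblast classes.

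All 7 members are named with every mouse's value, and from each other list the genes past the threshold or, where none passed, up to 3 with the smallest p. The members, lists and tests were chosen with earlier results of these data known. Alternatives changed scaling, pseudocount, filter, weights, columns, covariates, depth and mice. Promoters are from RefSeq: 6 of the 7 members have an entry.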

Additional observations from a re-analysis of the deposited data

Results flagged for a closer look

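In 3 of 35 groups of 4 or 5 mice, 1 mouse lay far from the others by Dixon's 95% criterion, which chance exceeds in about 1 of 20 groups. Fcgr1 in granulocytes had 3.99 TMM-scaled SPM in healthy mouse 4 and 0 in the other 3 healthy mice. Fcgr4 in granulocytes had 5.52 in healthy mouse 1 and 0 in the other 3. Both values are a single unit of signal. With the other 3 mice at 0, any value above 0 exceeds the criterion, so the rate of 1 of 20 does not apply to these groups. Fcgr4 in B cells had 6.50 in arthritic mouse 6, from 26 units, against 0 to 1.57 in the other 4 arthritic mice.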

How the results depend on the processing

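The numbers of genes called depended on the setting, and the cause was not tested. Over all cells 4 genes were called, 1 of them higher, against 3 with median-of-ratios scaling, none higher, 19 with scaling by the total, all higher, 7 with a pseudocount of 5, 0 without the filter, 0 with weights per mouse, 7 without columns shared between the groups, 10 without hemoglobin genes, 73 with the hemoglobin share and 9 with the granulocyte share as a covariate, and 0 to 64 with 1 mouse left out. In granulocytes 52 became 5 with median-of-ratios and 2 with total scaling (2 and 1 of them higher, against 46 of 52), 175 with a pseudocount of 5, 2801 without the filter, 16 with a filter at 20, 283 with weights, 878 without shared columns, where healthy mouse 2 dropped out, 3 when thinned, 282 without hemoglobin genes, 0 with the hemoglobin share, 883 with at least 10 columns per mouse (the same fit as without healthy mouse 2) and 0 to 883 with 1 mouse left out. In B cells 0 genes were called, which ranged from 0 to 59 with 1 mouse left out, reaching 59 without healthy mouse 2. For the difference between classes 0 became 15 with a pseudocount of 0.5, 19 without the filter, 11 with a filter at 20, 2280 without shared columns, where 1 healthy mouse remained, and 0 to 263 with 1 mouse left out.

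The mouse numbers 1, 3 and 4 occur in both groups. Deviations of same-numbered mice from their group means had correlations of -0.004, -0.287 and 0.301. So few pairs cannot show whether the number marks a pairing, and the main fits did not use it. With the replicate number as a block 35 genes were called over all cells, 82 in granulocytes, 26 in B cells and 0 for the difference between classes. Under this block the log2 differences over all cells turned to -0.31 for Fcgr2b, -0.19 for Fcgr3 and -0.00 for Tyrobp, and to 0.57 for Fcgr3 in B cells; no member was called under the block.

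None of the members' differences that turned sign was past the threshold in the report. Median-of-ratios scaling moved the median log2 difference of all genes from 0.26 to 0.15 over all cells and from 0.53 to 0.37 in granulocytes. Over all cells Fcgr2b turned to -0.04 with weights and -0.26 with the granulocyte share; with 1 mouse left out it ranged from -0.17 to 0.38, going to -0.17 without healthy mouse 2 and -0.02 without arthritic mouse 5, and Fcgr3 from -0.10 to 1.10. In granulocytes Fcgr2b turned to -0.01 with median-of-ratios scaling, and thinning turned Fcgr2b to -0.04, Fcgr3 to -0.19 and Syk to -0.55. In granulocytes Fcer1g and Tyrobp stayed positive in all 23 alternatives (0.50 to 1.01 and 0.35 to 0.90). Fcer1g passed the threshold in 9 of 23 and Tyrobp in 4, in settings that called 2.28% to 12.9% of all genes. These settings are not distinct. At least 10 columns per mouse is the same fit as without healthy mouse 2, and leaving out shared columns also took that mouse out. For Tyrobp, only the setting without the filter kept healthy mouse 2. Fcgr4 was positive in all 16 that fitted it. As the healthy granulocytes held 1 unit of Fcgr4 signal, that sign is not read as a test. Relative to the median of all genes Fcer1g ranged from 0.02 to 0.58 and Tyrobp from -0.13 to 0.32, being -0.13 without healthy mouse 4.

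In B cells weights turned Fcgr2b to 0.54, Fcgr3 to 2.31, Fcer1g to -0.50, Tyrobp to 0.00 and Syk to 0.18. Counting identical columns once turned Fcgr2b to 0.15, Fcgr3 to 0.51 and Tyrobp to 0.18. Without shared columns, where healthy mouse 4 dropped out, Fcgr2b was 2.26, Fcgr3 1.80, Tyrobp 0.74 and Syk 0.05, and with the hemoglobin share 0.38, 1.26, 0.51 and 0.02. Total scaling turned Fcgr3 to 0.20 and Tyrobp to 0.06, leaving out hemoglobin genes 0.11 and 0.00, and a pseudocount of 0.5 Fcgr3 to 0.09. With 1 mouse left out the ranges were -1.14 to 0.78 for Fcgr2b, -1.53 to 1.90 for Fcgr3, -0.58 to 0.65 for Tyrobp and -0.82 to 0.32 for Syk; without healthy mouse 4 these genes stood at 0.78, 1.90, 0.65 and 0.32, Fcgr3 stood at 0.92 without arthritic mouse 5, and Tyrobp at 0.01 and 0.07 without arthritic mice 1 and 3.

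For the difference between classes, leaving out shared columns gave -3.78 for Fcgr2b (limma adjusted p = 0.00777), -2.98 for Fcgr3 and -0.29 for Fcgr4. Fcer1g was -0.02 with median-of-ratios and -0.41 with total scaling. With 1 mouse left out Fcer1g ranged from -0.69 to 0.48 (-0.69 without healthy mouse 1, -0.08 and -0.23 without arthritic mice 1 and 3), Fcgr2b from -0.75 to 1.52, Fcgr3 from -1.13 to 2.53, Syk from -0.01 to 1.29 and Tyrobp from -0.11 to 1.49; without healthy mouse 4 the last 4 stood at -0.75, -1.13, -0.01 and -0.11, and Fcgr3 at -0.08 without arthritic mouse 5. All 182 alternative class levels lay within 1 SD of the level with all columns together, over mice in blood and over columns in the joint. This bound is loose. In blood 1 of the alternatives was the mean over mice given above, and in the joint the SD was that between single columns. Healthy mice rest on few columns, so a low gene such as Fcgr1 or Fcgr4 could not be shown to be absent from their granulocytes.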
